A study of Mus musculus with 36 samples.

Results

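The matrix metalloproteinases (MMPs), the ADAMTS proteases and the tissue inhibitors of metalloproteinases (TIMPs) were taken by symbol from the deposited gene counts: every Mmp gene with a plain number, every Adamts gene with a plain number, and Timp2, Timp3 and Timp4. This gave 45 members of 55487 genes, of which 23 were Mmp, 19 Adamts and 3 Timp genes. The ADAMTS-like genes and Timp1 are outside the rule and were followed as related genes. The libraries came from C57BL/6 mice of 2 to 4 months, 24 in all, with 4 mice in each of 6 groups. The groups were naïve mice, mice 3 days (3 D) and 2 weeks (2 W) after unilateral crush of the optic nerve (ON), and mice 3 D, 2 W and 6 weeks (6 W) after unilateral injection of microbeads into the eye, the glaucoma model. From the same mice came 3 tissues: the unmyelinated ON (UON) just behind the eye, the myelinated ON (MON) behind it, and the retina. RNA was pooled by sex, so each group of each tissue had a female and a male library, each pooled from 2 mice (n = 2 pools), which made 36 libraries. The stretch between UON and MON, where myelin begins, had been discarded at dissection. A pool stands both for its mice and for its sex, and the p-values rest on the spread between such pools.

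MMPs are zinc proteases that cut collagens, elastin, gelatin and other proteins of the extracellular matrix, and most are secreted as inactive proenzymes. ADAMTS enzymes share the catalytic fold and add thrombospondin repeats, and several of them cut aggrecan, brevican and versican, the proteoglycans of the central nervous system. TIMPs bind the active site of these enzymes in a fixed ratio, so that the balance of enzyme and inhibitor sets how much matrix is turned over. In the ON head this balance has long been studied in glaucoma, because astrocytes and connective tissue there carry the load of intraocular pressure.

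Libraries held 16.2 to 78.1 M estimated counts (UON 16.2 to 58.5, MON 16.3 to 78.1, retina 19.9 to 56.0), and the naïve MON pools differed most in depth, at 78.1 M (female) and 17.8 M (male). Sex-linked genes matched the labelled sex in 36 of 36 libraries. Tissue labels held against marker genes: the summed level of 6 photoreceptor genes was 58700 and 59400 counts per M library counts (CPM) in the naïve retina pools and 146 CPM or less in the naïve nerve pools. The 10 oligodendrocyte and myelin genes were each called lower in naïve UON than in MON. Below, paired values are those of the female pool first and the male pool second. CPM, scaled by TMM factors, serve to compare 1 gene between libraries, and the deposited fragments per kilobase of transcript, scaled to library size (FPKM) serve to compare genes with each other. A gene is called at an adjusted p below 0.05 (Benjamini-Hochberg over all genes tested) with a log2 fold change beyond 1 in edgeR's quasi-likelihood test. A value after ± is a standard error. For edgeR it was taken as the size of the log2 fold change divided by the square root of the F statistic of the test.

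Mmp1a, Mmp1b, Mmp7 and Mmp20 stayed too low to be tested in any comparison, which leaves 41 that were tested at least once. Of these, 25 were called in at least 1 of the 3 comparisons between naïve tissues, in which 9.63%, 31.7% and 27.6% of all genes were called, and 5 were called by edgeR in at least 1 comparison with injury, in which 0% to 4.26% were. These tallies run over several comparisons and have no matching share of all genes, so nothing is read from them here. Altogether 18 members, including the 4 untested ones, were called by edgeR in neither kind.

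In naïve UON 19 members had a mean of 1 FPKM or more, in MON 17 and in retina 14. Timp3 had the highest mean of all members in both nerve regions. This inhibitor, which binds to the matrix and also inhibits ADAMTS enzymes, measured 347 and 340 FPKM in UON, 95 and 54 in MON and 15 and 16.3 in retina. Timp2, which inhibits MMPs and also helps the membrane enzyme Mmp14 to activate Mmp2, measured 217 and 284 FPKM in UON, 57.7 and 52.8 in MON and 19.7 and 18.2 in retina. Both genes therefore had the order UON, MON, retina with no overlap of pools. Timp4, an inhibitor known from heart and brain, followed the same order at lower levels, with 22.1 and 26.9 FPKM in UON, 8.64 and 8.12 in MON and 0.0752 and 1.08 in retina. Among the enzymes, the highest naïve means were those of Adamts4 in MON (69.3 and 53.2 FPKM), Mmp14 in UON (41.2 and 53.0) and Mmp23 in UON (37.6 and 34.6). In retina Mmp9 had the highest mean of the enzymes (7.22 and 5.41 FPKM), with Adamts3 close to it at 6.21 and 5.42. Timp3 and Timp4 lie within Syn3 and Syn2 on the opposite strand, Mmp19 overlaps Tmem198b and Gm47093, and the strand setting of the counting is not given in the sources used here.

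**Figure D1:**
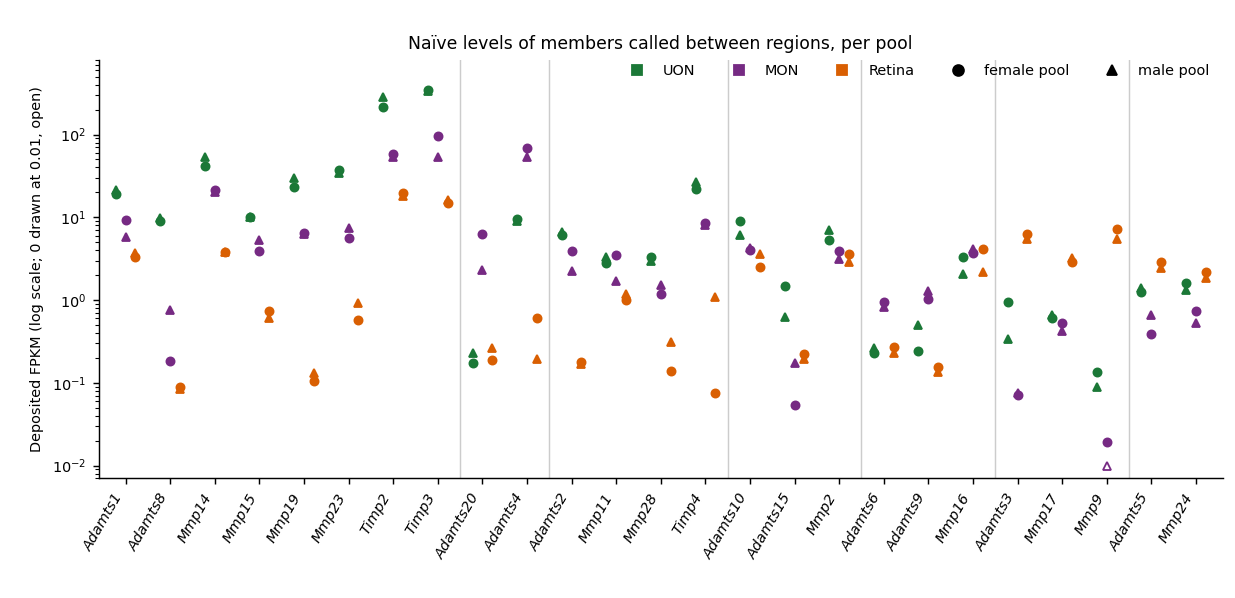
Deposited FPKM (log scale) of the 25 members called between naïve tissues, one point for each pool (circles female, triangles male; green UON, purple MON, orange retina), grouped by vertical lines into UON over both other tissues, MON over both, both nerve regions over retina, UON over retina, MON over retina, retina over both, and retina over MON. Timp3 reaches 347 FPKM in UON, Adamts4 stands apart in MON at 69.3 and 53.2, and Mmp9 is at its highest in retina at 7.22 and 5.41.

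The first comparison asks how the 2 nerve regions differ before any injury. Of 36 members tested, 10 were called higher in UON and 2 higher in MON, where 4.83% of all genes were called higher in UON and 4.80% lower (9.63% in either direction). The median log2 difference of UON over MON was 0.96 over the members and -0.06 over all genes tested. The members higher in UON were 2 inhibitors, 4 MMPs and 4 ADAMTS enzymes, and both members higher in MON were proteoglycan-cutting ADAMTS enzymes.

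Adamts8, an enzyme of that same proteoglycan-cutting group (chromosome 9, 30942562 to 30963838, GRCm38), showed the largest called difference. Its pools measured 8.91 and 9.74 FPKM in UON against 0.184 and 0.753 in MON, a log2 difference of 4.51 ± 0.54 (adjusted p = 0.00374). Mmp23, a small membrane-bound MMP (chromosome 4, 155650655 to 155653384), measured 37.6 and 34.6 FPKM against 5.56 and 7.37 (2.39 ± 0.27, adjusted p = 0.00295). Mmp19 (chromosome 10, 128790910 to 128800824), an enzyme that cuts basement membrane proteins, measured 23.3 and 30.2 FPKM against 6.54 and 6.25 (1.91 ± 0.23, adjusted p = 0.00375). In each of these 3 genes both UON pools lay above both MON pools by several fold. The inhibitors moved the same way, Timp3 by 2.16 ± 0.33 (adjusted p = 0.00897) and Timp2 by 2.11 ± 0.27 (adjusted p = 0.00437). Timp4 was not called by edgeR (1.42 ± 0.37, adjusted p = 0.0573), so 2 of 3 inhibitors passed there. DESeq2, fitted to the same libraries, did call Timp4 higher in UON (1.47 ± 0.40, adjusted p = 0.00227). DESeq2 alone also called Adamts2 (1.13), Adamts15 (3.20), Mmp24 (1.32) and Mmp9 (2.93, on 6 and 0 counts in MON) higher in UON and Adamts6 (-1.48) lower.

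Adamts4 and Adamts20 went the other way. Adamts4, the aggrecanase that oligodendrocytes are known to make (chromosome 1, 171250421 to 171260637), measured 9.5 and 9.01 FPKM in UON against 69.3 and 53.2 in MON (log2 difference -2.80 ± 0.38, adjusted p = 0.00565). Adamts20, known for its role in pigment cell migration in the belted mouse, measured 0.173 and 0.232 FPKM against 6.27 and 2.29 (-3.46 ± 0.48, adjusted p = 0.00615). In CPM its MON pools lay closer together, at 1.4 and 2.1 in UON against 20.1 and 16.7 in MON. The summed CPM of 10 oligodendrocyte and myelin genes moved with them, at 28400 and 21800 in UON against 167000 and 122000 in MON. The 8 fibroblast genes moved with the members higher in UON, at 2630 and 2910 CPM in UON, 719 and 413 in MON and 9.99 and 9.02 in retina. So did the 7 astrocyte genes, at 22600 and 26600 CPM in UON, 17800 and 11900 in MON and 1490 and 1400 in retina. None of the listed oligodendrocyte or fibroblast genes was at 0 in the naïve nerve, and the part of these 3 cell types in the differences was not tested. In bulk tissue, fewer cells of a type and less RNA per cell cannot be told apart.

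The other 5 genes called higher in UON had smaller or less stable differences. Adamts3, a procollagen N-proteinase, measured 0.955 and 0.340 FPKM in UON and 0.0715 and 0.0762 in MON (2.70 ± 0.51, adjusted p = 0.0199). Adamts1 (19.2 and 21.1 against 9.29 and 5.82 FPKM) and Adamts5 (1.27 and 1.41 against 0.388 and 0.661) both cut proteoglycans, and differed by 1.33 and 1.32. The membrane-type enzymes Mmp15 (10.1 and 10.2 against 3.90 and 5.26 FPKM) and Mmp14 (41.2 and 53.0 against 21.1 and 20.1) differed by 1.10 and 1.01. Pools did not overlap in any of these 5 genes. Each call was nevertheless lost when 1 library was left out: Mmp14 and Adamts1 without the male UON or the male MON pool (adjusted p up to 0.302 and 0.1), Adamts3 without the female MON pool (0.0790), and Adamts5 and Mmp15 without either UON pool or without the female MON pool (up to 0.141 and 0.193). With all 36 libraries in 1 fit the calls of Adamts1 (adjusted p = 0.146), Adamts3 (0.166) and Mmp15 (0.082) were lost as well. The calls of Adamts8, Mmp23, Mmp19, Timp2, Timp3, Adamts4 and Adamts20 held in all 4 such fits.

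**Figure D2:**
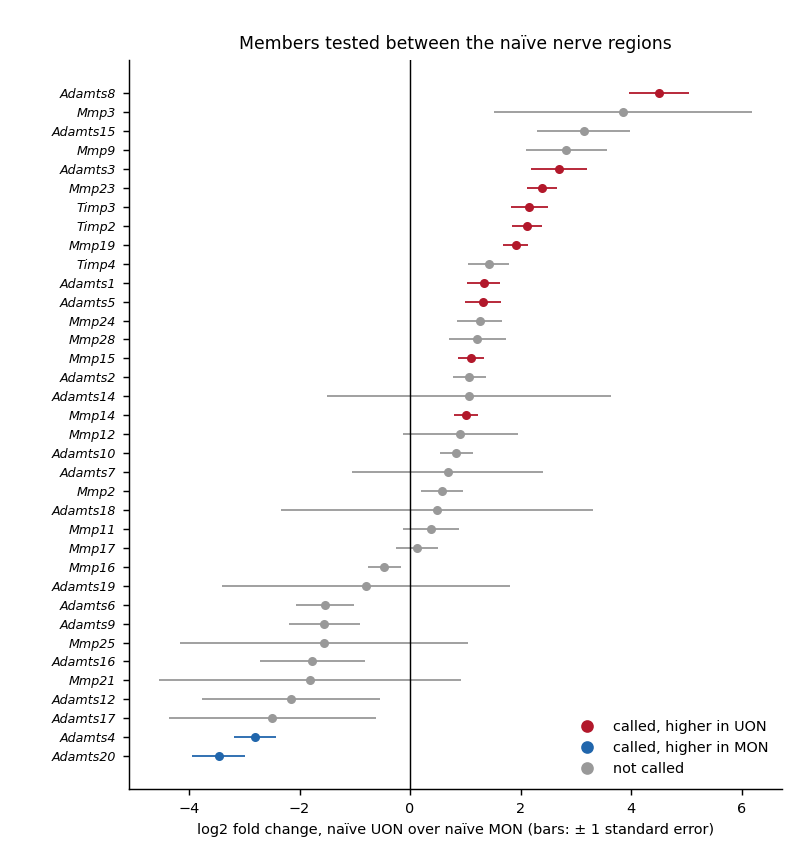
Log2 fold change of naïve UON over naïve MON for the 36 members tested, with bars of 1 standard error (edgeR; red called higher in UON, blue called higher in MON, grey not called). Adamts8 leads at 4.51 and Adamts20 is last at -3.46, and wide bars mark members with low counts such as Mmp3.

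Against the retina, differences were more frequent for members and for all genes alike. Of 36 members 16 were called higher and 3 lower in UON than in retina, against 18.2% and 13.5% of all genes (31.7% in either direction), and the median log2 difference was 1.74 for members and -0.17 for all genes. In MON 17 were called higher and 5 lower than in retina, against 16.7% and 10.9% of all genes (27.6% in either direction), with medians of 1.33 and 0.00. These 3 comparisons share their naïve libraries, so their counts are given side by side and not as independent results.

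By these calls, 8 members were higher in UON than in both other tissues (Adamts1, Adamts8, Mmp14, Mmp15, Mmp19, Mmp23, Timp2 and Timp3) and 2 were higher in MON than in both (Adamts4 and Adamts20). Another 4 were higher in both nerve regions than in retina with no edgeR call within the nerve (Adamts2, Mmp11, Mmp28 and Timp4). Of these, DESeq2 called Adamts2 and Timp4 higher in UON than in MON. Of the 6 largest differences of UON over retina, Mmp19 came first at 8.02 ± 0.31, with 0.106 and 0.132 FPKM in retina, before Timp4 at 7.66 ± 0.50 and Adamts8 at 7.13 ± 0.62. Mmp23 followed at 6.07 ± 0.32, the procollagen N-proteinase Adamts2 at 5.62 ± 0.37 (6.12 and 6.65 FPKM in UON, 0.177 and 0.168 in retina) and Adamts4 at 4.98 ± 0.43. In MON the order was Adamts4 at 7.79 ± 0.48, Timp4 at 6.24 ± 0.47, Mmp19 at 6.11 ± 0.30, Adamts2 at 4.55 ± 0.35, Adamts20 at 4.29 ± 0.50 and Mmp23 at 3.68 ± 0.29. The adjusted p of these 12 differences was 0.000679 or lower.

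The other members called between nerve and retina had smaller differences. Mmp28 (3.33 and 2.99 FPKM in UON, 1.19 and 1.54 in MON, 0.139 and 0.314 in retina) and Mmp11 (2.82 and 3.33, 3.50 and 1.70, 1.01 and 1.20) were higher in both nerve regions. UON alone was called over retina for Adamts10, an enzyme of fibrillin microfibrils (8.94 and 6.06 against 2.54 and 3.65 FPKM), for Adamts15 (1.47 and 0.616 against 0.222 and 0.193) and for the gelatinase Mmp2 (5.27 and 6.96 against 3.61 and 2.90). MON alone was called over retina for Adamts6 (0.939 and 0.813 against 0.273 and 0.229 FPKM), Adamts9 (1.04 and 1.29 against 0.156 and 0.135) and the membrane-type Mmp16 (3.68 and 4.15 against 4.15 and 2.21). Mmp16 is the one member here whose deposited FPKM of the groups overlapped although its CPM did not, and its call was lost in each of 4 fits without 1 library, with DESeq2, with DESeq2's size factors in edgeR (log2 difference 0.97) and with no filter on low counts (adjusted p = 0.0503). The calls of Adamts6 and of Mmp24 between MON and retina were likewise lost in all 4 such fits (adjusted p up to 0.260 and 0.206). Adamts15, Mmp2, Mmp11 and Adamts9, and Mmp17 of the genes below, each lost a call in 2 or more of 4.

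For 5 members retina had the higher level. Mmp9, gelatinase B, which leukocytes and some neurons make (chromosome 2, 164940780 to 164955850), measured 7.22 and 5.41 FPKM in retina, 0.135 and 0.0899 in UON and 0.0195 and 0 in MON. Its log2 difference was -5.36 ± 0.62 for UON and -8.19 ± 0.76 for MON over retina (adjusted p = 0.000582 and 0.000243), the latter on 6 and 0 counts in naïve MON. Adamts3 (6.21 and 5.42 FPKM in retina) was lower by -2.93 ± 0.47 in UON and -5.62 ± 0.56 in MON, and the membrane-type Mmp17 (2.87 and 3.22 FPKM) by -1.85 ± 0.39 and -1.98 ± 0.39. Adamts5 (2.86 and 2.42 FPKM) and Mmp24, a membrane-type enzyme of neurons (2.21 and 1.84 FPKM), were called against MON only, at -1.92 ± 0.33 and -1.40 ± 0.41. Thus the 2 gelatinases were called in opposite directions between UON and retina, Mmp2 higher and Mmp9 lower.

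Of the related proteolysis genes (39 fixed by name: Timp1, the plasminogen system, ADAMs, ADAMTS-like proteins, procollagen processing, matrix proteoglycans), 9 of 38 tested were higher and 6 lower in UON than in MON. Of all genes, 4.83% were called higher and 4.80% lower there. Pcolce, which enhances procollagen processing, led at 2.62, with Papln at 2.44, and Tll2 and Pcsk6 were lowest at -3.47 and -3.44. Against retina, 22 were higher and 1 lower in UON (Plat 6.99, Timp1 6.89, Pcsk6 -1.56), and 23 higher and 2 lower in MON (Bcan 6.01, Adamtsl4 5.61, Tll1 -3.89, Adamtsl2 -2.52). The shares of all genes called higher and lower than in retina were 18.2% and 13.5% for UON and 16.7% and 10.9% for MON. The list was made with earlier results of these data known, so nothing is read from its counts.

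The next comparisons ask which members respond to ON crush, and MON was the tissue in which members were called. At 3 D, 3 of 38 members tested were called higher and 0 lower, against 3.61% and 0.655% of all genes (4.26% in either direction). At 2 W it was again 3 higher and 0 lower of 38, against 2.13% and 0.595% (2.72%). The median log2 change of members was 0.59 at 3 D and 0.94 at 2 W, beside 0.00 and 0.05 over all genes. At an unadjusted p below 0.05 stood 20 members at 3 D and 17 at 2 W, and 4195 and 3204 of all 19988 genes tested. The 5 genes behind the 6 calls were the macrophage elastase Mmp12 at both times, the gelatinase Mmp9 and the neutrophil collagenase Mmp8 at 3 D, and the gelatinase Mmp2 and the aggrecanase Adamts5 at 2 W. Mmp3, Mmp8, Mmp9, Mmp10 and Mmp13 had 0 to 6 counts in each naïve MON pool. They passed the filter on low counts through the crush pools, so they could hardly come out lower. The medians and tallies above include them, and nothing is read from these.

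Mmp12 and Mmp8 lie in a run of 10 members on chromosome 9 (7272514 to 7699585, GRCm38), in the order Mmp13, Mmp12, Mmp1b, Mmp3, Mmp1a, Mmp10, Mmp8, Mmp27, Mmp20 and Mmp7. Of the run, Mmp3, Mmp10 and Mmp13 were also at or near 0 in naïve MON and had counts in both MON pools at 3 D after crush, while Mmp27 had 0 and 121 counts there. The letters TGAGTCA or their reverse complement TGACTCA, which transcription factors of the AP-1 group bind, were therefore searched in the 250 bases before the start of each RefSeq transcript entry (GRCm38.p6) on both strands. Of 31 members with an entry 7 held the letters, and all 7 were in the run (Mmp13, Mmp12, Mmp1b, Mmp3, Mmp1a, Mmp10 and Mmp7). The other 21 members with an entry outside the run held none, and of all genes with an entry 5.16% held the letters (1395 of 27025). This is a description of letters, chosen after the expression values were seen, and is no evidence of binding. For Mmp8, Mmp12 and these 3 genes, the 150 bases before the start are shown 5′ to 3′ on the plus strand, with the matched letters in capitals:
Mmp13 (chr9:7272364-7272513): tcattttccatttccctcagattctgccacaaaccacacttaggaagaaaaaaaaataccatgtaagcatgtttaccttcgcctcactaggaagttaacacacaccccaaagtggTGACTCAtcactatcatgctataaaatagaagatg
Mmp12 (chr9:7347224-7347373): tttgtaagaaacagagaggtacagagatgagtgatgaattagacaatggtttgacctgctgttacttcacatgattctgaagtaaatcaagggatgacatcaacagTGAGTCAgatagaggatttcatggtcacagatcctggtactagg
Mmp3 (chr9:7445672-7445821): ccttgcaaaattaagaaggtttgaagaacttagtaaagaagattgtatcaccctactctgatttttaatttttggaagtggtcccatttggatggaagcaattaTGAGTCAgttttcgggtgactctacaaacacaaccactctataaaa
Mmp10 (chr9:7502192-7502341): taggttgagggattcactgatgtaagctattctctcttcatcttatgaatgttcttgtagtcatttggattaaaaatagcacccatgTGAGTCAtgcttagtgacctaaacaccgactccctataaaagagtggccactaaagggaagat
Mmp8 (chr9:7558279-7558428): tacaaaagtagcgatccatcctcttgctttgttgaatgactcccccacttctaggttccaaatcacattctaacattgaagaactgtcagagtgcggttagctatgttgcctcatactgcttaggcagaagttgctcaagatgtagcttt
The letters begin 35 bases before the start in Mmp13, 44 in Mmp12, 46 in Mmp3 and 63 in Mmp10, and are absent from the window of Mmp8. Mmp12 has a second RefSeq start upstream of the one shown, whose window holds none, and the shown start lies inside the gene as the authors' tables delimit it.

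Mmp12 (7344381 to 7369499 on chromosome 9) measured 0.748 and 0.471 CPM in naïve MON, 9.3 and 13.4 CPM at 3 D and 82.5 and 20.03 CPM at 2 W after crush. Each crush pool lay above both naïve pools, and the female pool was the highest library at 2 W. The log2 change over naïve was 4.48 ± 0.66 at 3 D (adjusted p = 0.0164) and 6.36 ± 0.71 at 2 W (adjusted p = 0.0138). Its last 1261 bases overlap Mmp1b on the opposite strand, but Mmp1b held 2 counts over all 36 libraries.

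Mmp9 measured 0.0955 and 0 CPM in naïve MON (6 and 0 counts), 9.41 and 12.9 CPM at 3 D and 0.237 and 0 CPM at 2 W. It was thus high in both pools at 3 D and back at a few counts at 2 W. The fitted change at 3 D was 7.90 ± 1.29 (adjusted p = 0.0210). Mmp8 (chromosome 9, 7558456 to 7568485) measured 0 and 0.236 CPM in naïve MON (0 and 4 counts), 5.85 and 17.5 CPM at 3 D (105 and 846 counts) and 2.08 and 0.559 CPM at 2 W. Its fitted change at 3 D was 7.26 ± 1.51 (adjusted p = 0.0429). Since naïve levels of Mmp8 and Mmp9 rest on so few counts, which are made from read coverage, the sizes of these folds depend on the prior count of the fit.

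Adamts5 (chromosome 16, 85856173 to 85901828) measured 5.87 and 8.66 CPM in naïve MON, 10.9 and 10.3 at 3 D and 21.6 and 32.9 at 2 W, a log2 change of 2.00 ± 0.37 at 2 W (adjusted p = 0.0418). Mmp2 (chromosome 8, 92827291 to 92853420) measured 16.5 and 11.5 CPM in naïve MON, 25.8 and 31.8 at 3 D and 66.5 and 32.4 at 2 W (1.88 ± 0.36, adjusted p = 0.0449). In both genes the pools of naïve, 3 D and 2 W stood in that order without overlap, unlike Mmp8 and Mmp9, which were highest at 3 D.

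All 6 calls in MON were lost without either naïve MON pool, when 1 naïve library remained (adjusted p up to 0.133 for Mmp12, 0.122 for Mmp9, 0.155 for Mmp8, 0.226 for Adamts5 and 0.228 for Mmp2), while the log2 changes stayed positive. Those of Mmp8 and Mmp9 at 3 D were then between 5.62 and 11.82 and between 7.35 and 11. Without the female 3 D pool 11 members were called at 3 D, and without the male or the female 2 W pool 8 or 6 were called at 2 W. The call of Mmp8 was also lost without the male 3 D pool (adjusted p = 0.0533), and that of Mmp2 without the female 2 W pool (adjusted p = 0.0882). With all 36 libraries in 1 fit the adjusted p was 0.266 for Mmp8 and 0.076 for Mmp2, and with DESeq2's size factors 0.0502 for Mmp2.

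**Figure D3:**
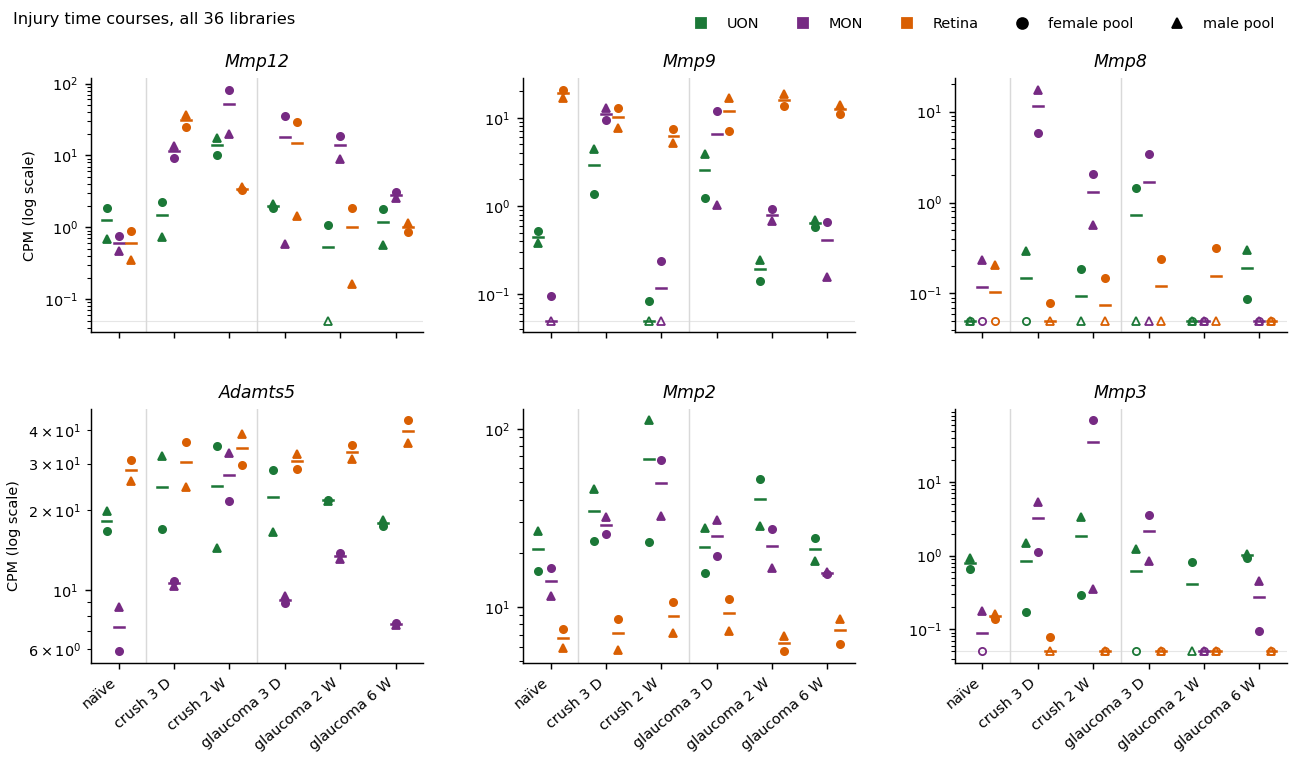
CPM (log scale) of Mmp12, Mmp9, Mmp8, Adamts5, Mmp2 and Mmp3 in all 36 libraries, by treatment and time, with circles for female and triangles for male pools, bars for the mean of both, and open symbols at 0.05 CPM for values of 0 to 0.05. In MON (purple) Mmp12 goes from 0.748 and 0.471 CPM in naïve to 82.5 and 20.03 at crush 2 W, and Mmp9 and Mmp8 are highest at crush 3 D. Mmp3 at crush 2 W is high in the female pool alone.

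DESeq2, with the same samples and terms, called 14 members at 3 D (6.07% of all genes) and 11 at 2 W (4.43%), the edgeR calls among them. DESeq2 gave 7 members no adjusted p at either time. Its shares of all genes, here and below, run over every gene with a p-value (38991 here, beside 19988 tested by edgeR). These include genes without an adjusted p, which cannot be called, so the shares of the 2 tools are not comparable. Higher at both times by DESeq2 were, besides Mmp12, Mmp2, Mmp19, Mmp10, Adamts1, Adamts7 and Adamts14. Adamts14, a procollagen N-proteinase, measured 0.573 and 0 CPM in naïve MON, 5.12 and 4.90 at 3 D and 2.85 and 1.68 at 2 W. Adamts7, which cuts cartilage oligomeric matrix protein, measured 0.987 and 0.236, then 4.23 and 3.90, then 4.99 and 1.59 CPM. Adamts1 measured 62.9 and 34.4, then 116 and 104, then 81.1 and 101 CPM, and Mmp19 28.5 and 25.6, then 81.8 and 49.2, then 45.5 and 87.5 CPM. In these 4 genes all crush pools of MON lay above the naïve pools. By edgeR their adjusted p was 0.0668, 0.0629, 0.0668 and 0.114 at 3 D, so none was called there or at 2 W.

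Several members were called by DESeq2 at one time only. Adamts8 was at 0.939 and 3.30 CPM in naïve MON, 12.7 and 11.3 at 3 D and 1.31 and 1.35 at 2 W, and Mmp17 at 4.07 and 3.30, 12.8 and 11.3, and 4.45 and 5.89. Both were highest at 3 D in both pools. Timp2 changed direction, with 296 and 236 CPM in naïve MON, 114 and 120 at 3 D and 371 and 934 at 2 W. DESeq2 called it lower at 3 D (-1.13 ± 0.38, adjusted p = 0.0280) and higher at 2 W (1.26 ± 0.38, adjusted p = 0.0136), and edgeR did neither (adjusted p = 0.193 and 0.180). The other members lower at 3 D by DESeq2 were Adamts2 (31.4 and 18 CPM in naïve, 8.47 and 10.8 at 3 D) and Adamts20 (20.1 and 16.7 in naïve, 6.63 and 4.34 at 3 D). Adamts2 was back at 33.3 and 34.3 CPM at 2 W, whereas Adamts20, at 10.8 and 9.57, was still below both naïve pools. Adamts10 was at 18.4 and 14.0 CPM in naïve MON and 47.9 and 33.8 at 2 W.

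The stromelysins and collagenase 3 were low. Mmp10 and Mmp13 were at 0 counts in both naïve MON pools, so no fold is given. Mmp10 reached 1.56 and 2.25 CPM at 3 D and 2.14 and 0.0589 at 2 W, and Mmp13 1.56 and 0.785 CPM at 3 D and 1.43 and 0 at 2 W. Mmp3, stromelysin 1, was at 0 and 0.177 CPM in naïve MON and 1.11 and 5.37 at 3 D. At 2 W it was at 69.2 CPM in the female pool and 0.353 in the male, so 1 library carries its 2 W level.

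Between 3 D and 2 W after crush, edgeR called 0 of 38 members in MON (0.075% of all genes), with 12 at an unadjusted p below 0.05 as were 2493 of 19988 genes. DESeq2 called 8 (2.71% of all genes), of which Timp2 (2.39), Mmp23 (2.12), Mmp12 (1.90), Adamts2 (1.81) and Adamts5 (1.32) were higher at 2 W, and Adamts9 (-1.85), Adamts8 (-3.21) and Mmp9 (-8.17) lower. The change of Mmp9 rests on 4 and 0 counts at 2 W. Mmp23 measured 5.12 and 5.31 CPM at 3 D and 22.0 and 23.2 at 2 W, beside 10.8 and 9.78 in naïve MON.

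Markers of several cell types moved with these MON values. The summed level of 8 microglia and macrophage genes was 937 and 906 CPM in naïve MON, 2120 and 2790 at crush 3 D and 4640 and 2550 at 2 W. That of 8 monocyte and neutrophil genes was 2.12 and 2.71 CPM in naïve MON, 18 and 51 at 3 D and 19 and 9.01 at 2 W. Ly6g and Camp were at 0 in both pools of naïve, 3 D and 2 W. Elane was at 0 in both pools in naïve and at 2 W, and Cxcr2 at 2 W alone, so the genes did not move together. The oligodendrocyte and myelin genes fell short of their naïve sum of 167000 and 122000 CPM, at 84000 and 74200 at 3 D and 44700 and 58300 at 2 W. Adamts4, called over naïve by neither tool, was at 424 and 281 CPM in naïve MON, 363 and 459 at 3 D and 183 and 242 at 2 W. Its 3 D pools thus did not lie below both naïve pools as the myelin sums did. The 8 fibroblast genes summed to 719 and 413 CPM in naïve MON, 571 and 1010 at 3 D and 1590 and 971 at 2 W, so that both 2 W pools lay above naïve. The 4 cartilage genes summed to 8.62 and 11, then 62.7 and 65.2, then 41.3 and 23.9 CPM, above naïve in every crush pool. Of these, Matn1 was at 0 in both pools at 2 W. What part cell composition had in the changes of the members was not tested.

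Related genes called in MON after crush were 7 higher and 1 lower of 38 at 3 D, against 3.61% and 0.655% of all genes. At 2 W they were 7 higher and 0 lower of 38, against 2.13% and 0.595%. These genes were listed with earlier results of these data known, so nothing is read from the counts. Adam8, a membrane protease of leukocytes, led at both times (8.48 ± 1.16 and 5.78 ± 1.11), and Plau, an activator of plasminogen, was at 5.16 ± 0.77 at 2 W. Adamtsl5 was lower at 3 D (-1.83 ± 0.39). Timp1, named here because it completes the inhibitors and chosen with its values known, rose by 4.43 ± 0.42 at 3 D and 3.87 ± 0.41 at 2 W (adjusted p = 0.00737 and 0.0129), whereas Timp3 and Timp4 were called at neither time by either tool.

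**Figure D4:**
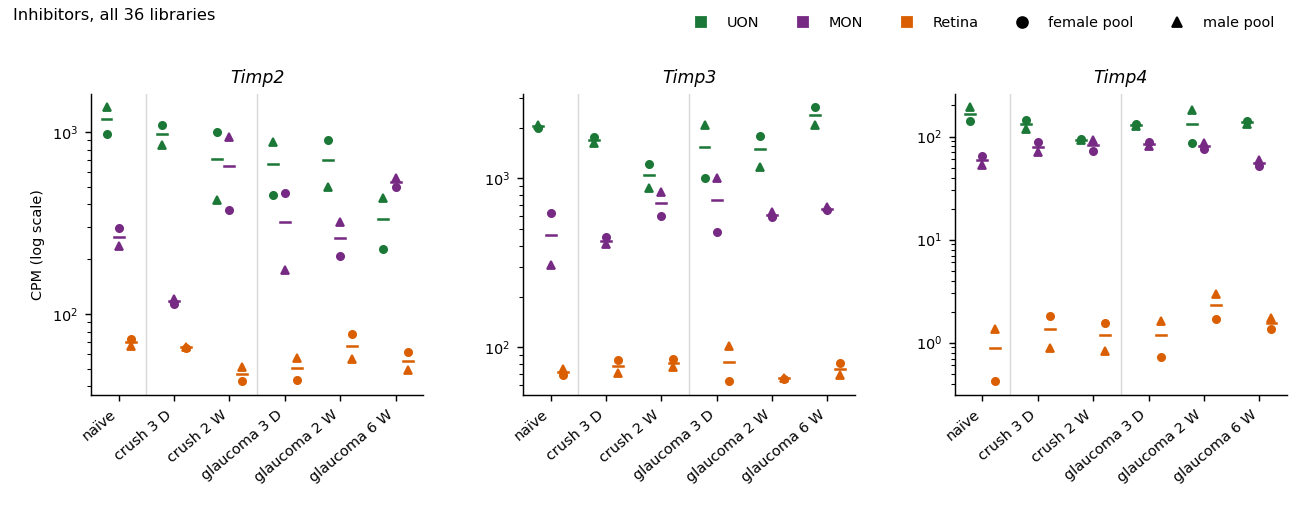
CPM (log scale) of Timp2, Timp3 and Timp4 in all 36 libraries by treatment and time, with circles for female and triangles for male pools and bars for their mean. Timp2 in MON (purple) is at 114 and 120 CPM at crush 3 D and 371 and 934 at 2 W, and in UON (green) at 228 and 436 at glaucoma 6 W beside 980 and 1365 in naïve UON.

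In UON, crush called no member by edgeR: 0 of 33 at 3 D (0% of all genes, 1 member and 657 of 21368 genes at an unadjusted p below 0.05, DESeq2 0) and 0 of 33 at 2 W (0.0281% of all genes, 8 members and 1980 genes below 0.05). DESeq2 called 2 at 2 W (1.38% of all genes). These were Mmp12, at 1.86 and 0.683 CPM in naïve UON and 10.1 and 17.6 at 2 W (3.75 ± 0.74, adjusted p = 0.000103), and Mmp15, at 63.5 and 68.0 in naïve and 24.6 and 24.1 at 2 W (-1.40 ± 0.42, adjusted p = 0.0356). At 2 W over 3 D edgeR called 0 of 33 (0.00468% of all genes, 4 members and 1176 genes below 0.05), and DESeq2 called 3 (0.949%), Mmp12 higher (3.51) and Mmp9 (-6.38) and Mmp17 (-2.65) lower. Mmp9 held 4 and 0 counts in the UON pools at 2 W. Median log2 changes of members were 0.04 at 3 D and -0.48 at 2 W, beside 0.00 and -0.09 over all genes. Thus the elastase gene stood above naïve in both 2 W pools in UON as well as in MON, without a call by edgeR in UON. The summed microglia and macrophage genes of UON were at 649 and 522 CPM in naïve and 1920 and 1010 at 2 W, also above naïve in both pools. The 2 UON pools at 2 W differed in myelin, with summed oligodendrocyte genes at 24700 and 3250 CPM, and the part of either in the values above was not tested.

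In retina, crush gave no edgeR call either: 0 of 36 at 3 D (0.0221% of all genes, 3 members and 1437 of 22671 genes below 0.05) and 0 of 36 at 2 W (0.313%, 4 members and 2037 genes below 0.05). Mmp12 came closest. It measured 0.879 and 0.346 CPM in naïve retina, 24.8 and 36.9 at 3 D and 3.26 and 3.58 at 2 W, so that each crush pool exceeded both naïve pools and the 3 D pools were the higher ones. Its log2 change at 3 D was 5.64 ± 0.49 by edgeR (adjusted p = 0.0507) and 5.64 ± 0.40 by DESeq2, where it was the 1 member called (0.341% of all genes). The summed microglia and macrophage genes were at 27.6 and 23.9 CPM in naïve retina, 47.1 and 39.1 at 3 D and 59.1 and 51 at 2 W, so that they were highest at 2 W and Mmp12 at 3 D. The monocyte and neutrophil genes were at 1.76 and 1.57 CPM in naïve, 2.39 and 1.13 at 3 D and 1.23 and 0.878 at 2 W. Of these 8 genes, 2, 2 and 3 were at 0 in both pools. At 2 W DESeq2 called 2 members (0.867% of all genes), Mmp12 higher (2.42 ± 0.41) and Mmp9 lower (-1.66 ± 0.28). Mmp9 measured 20.9 and 16.9 CPM in naïve retina, 12.8 and 7.70 at 3 D and 7.44 and 5.13 at 2 W, and its log2 change at 2 W by edgeR was -1.65 ± 0.22 (adjusted p = 0.0527). The 6 retinal ganglion cell genes stood in the same order of times, with sums of 433 and 380 CPM in naïve retina, 255 and 219 at 3 D and 100 and 97.2 at 2 W (0 and 4 called lower), and their part in the values of Mmp9 was not tested. Mmp9 was therefore high in MON at 3 D and below naïve in retina in every crush pool. Of the related genes, A2m was called higher in retina at 2 W (2.47 ± 0.28).

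The glaucoma model gave 0 edgeR calls of members at every time in every tissue. In UON 39 members were tested, with 0% of all genes called at 3 D, 2 W and 6 W and 4, 1 and 1 members at an unadjusted p below 0.05 beside 868, 801 and 451 of 22438 genes. DESeq2 called 0 at 3 D and 2 W and 1 at 6 W (0.0831% of all genes). That member was Timp2, at 980 and 1365 CPM in naïve UON, 448 and 879 at 3 D, 902 and 499 at 2 W and 228 and 436 at 6 W. Both 6 W pools lay below both naïve pools, and the log2 change was -1.89 ± 0.44 by DESeq2 (adjusted p = 0.0210) and -1.89 ± 0.43 by edgeR (unadjusted p = 0.00287, adjusted p = 1). Timp3 in UON was at 2638 and 2086 CPM at 6 W beside 1996 and 2078 in naïve. It was called by neither tool, the male pools were close, and its difference from Timp2 was not tested.

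In MON, 38 members were tested in glaucoma, with 0% of all genes called by edgeR at 3 D, 2 W and 6 W and 7, 6 and 2 members at an unadjusted p below 0.05 beside 1854, 2017 and 1127 of 22960 genes. DESeq2 called 2 at 3 D (1.10% of all genes), 1 at 2 W (1.27%) and 0 at 6 W. Mmp9 was called by DESeq2 at 3 D (6.64 ± 1.15) and 2 W (4.57 ± 1.17), and measured 11.98 and 1.01 CPM at 3 D, 0.915 and 0.672 at 2 W and 0.659 and 0.156 at 6 W, beside 0.0955 and 0 in naïve. Naïve MON held 6 and 0 counts of Mmp9, so it could hardly come out lower and the sizes of its folds are loose. At 3 D its female pool was much the higher one. Adamts14 was called at 3 D (3.67 ± 1.04), at 4.94 and 1.14 CPM beside 0.573 and 0 in naïve MON, again with the female pool the higher one. Mmp12 measured 35.1 and 0.580 CPM at 3 D, 18.7 and 8.99 at 2 W and 3.13 and 2.58 at 6 W. At 3 D its female pool alone was high and the male pool overlapped the naïve ones, whereas at 2 W and 6 W both pools lay above them. The female 3 D pool was also the 1 glaucoma library of MON with counts of Mmp8 (3.40 CPM), Mmp10 (0.672) and Mmp13 (0.757). The summed monocyte and neutrophil genes were at 14.4 and 6.93 CPM in these 3 D pools, with Ly6g and Elane at 0 in both. Among the later pools, surface epithelium genes summed to 2000 CPM in the male 2 W and 2450 CPM in the female 6 W pool, beside 8.32 CPM or less in the other MON pools at those times and in naïve MON, and their part was not tested.

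In retina, 34 members were tested in glaucoma. All genes called by edgeR were 0.00429% at 3 D, 0% at 2 W and 0.00858% at 6 W, and 6, 2 and 4 members had an unadjusted p below 0.05 beside 1418, 1465 and 1321 of 23301 genes. DESeq2 called 0, 0 and 1 (0.292% of all genes at 6 W), the last being Adamts7 at 2.54 and 1.54 CPM beside 0.22 and 0 in naïve retina (11 and 0 counts). Mmp12 in retina was at 28.8 and 1.42 CPM at glaucoma 3 D, with the female pool again the higher one, as in MON of the same mice. In UON of these mice it was at 1.85 and 2.10 CPM, so the female pool was not higher there.

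**Figure D5:**
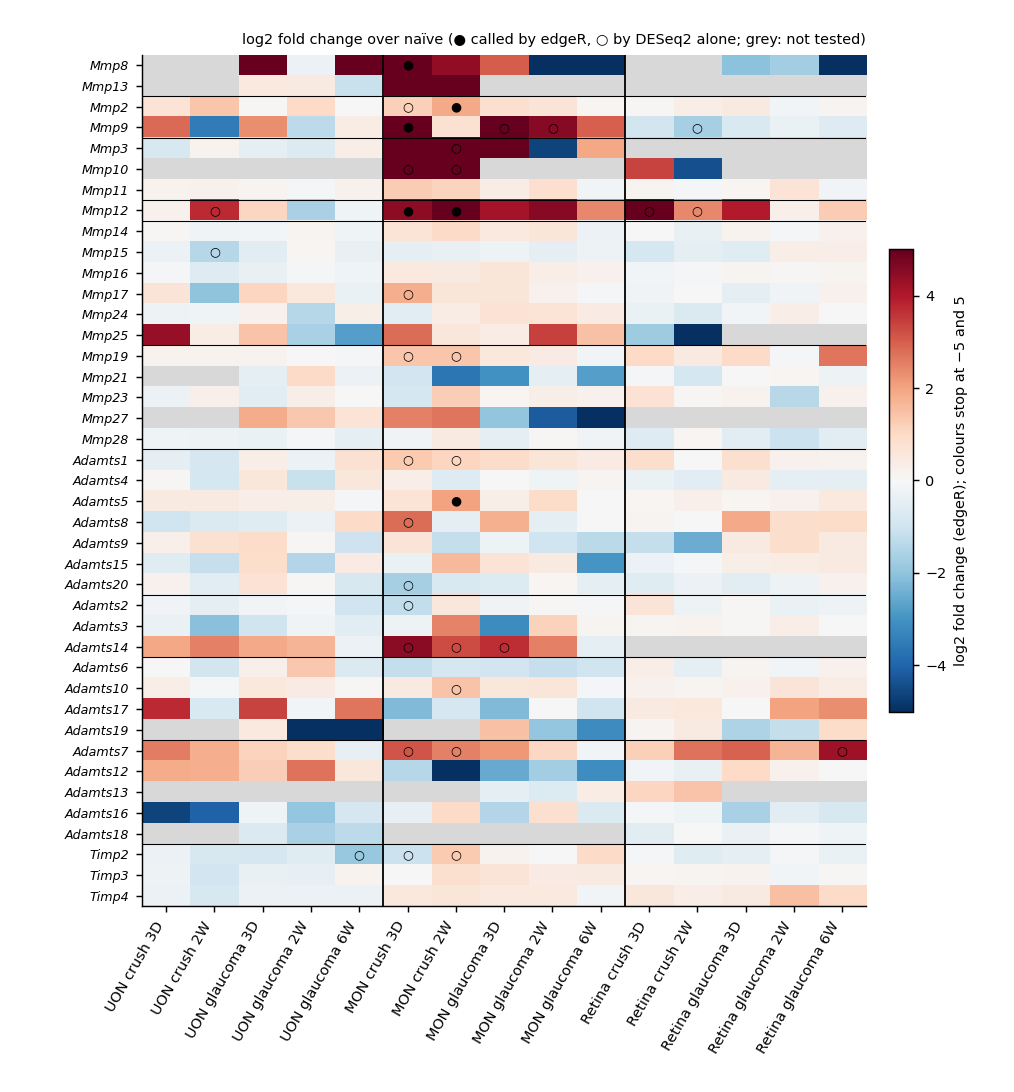
Log2 fold change over naïve (edgeR; colours end at -5 and 5, grey not tested) for the members tested in at least 1 of 15 injury comparisons, ordered by role, with filled circles for edgeR calls and open circles for calls by DESeq2 alone. The 6 filled circles are all in MON after crush (Mmp8, Mmp9 and Mmp12 at 3 D, Mmp2, Mmp12 and Adamts5 at 2 W). The darkest colours of Mmp8, Mmp10, Mmp13 and Mmp3 rest on groups at or near 0 counts.

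Whether MON and UON respond differently was tested as the difference of their changes over naïve, without pairing the UON and MON of the same mice. By edgeR 0 of 41 members were called at crush 3 D (0.012% of all genes, 7 members at an unadjusted p below 0.05) and at crush 2 W (0%, 17 members), and 0 of 40 at glaucoma 3 D, 2 W and 6 W (0% each, 2, 4 and 1 members). Over all genes, 1733 and 2728 of 25011 stood at an unadjusted p below 0.05 in the crush tests and 1511, 1595 and 799 of 25807 in those of glaucoma. The calls of 5 members in MON are therefore not shown to be particular to MON. DESeq2 called 3 at crush 3 D (0.691% of all genes), Mmp12 (4.12 ± 1.0), Adamts8 (3.58 ± 0.96) and Adamts1 (1.68 ± 0.48), each with the larger change in MON. At crush 2 W it called 5 (1.42%), with Timp3, Adamts1, Adamts10 and Mmp3 more positive in MON and Adamts12 more negative, and in glaucoma 0 at 3 D, Mmp12 at 2 W (0.264%) and Timp2 at 6 W (0.0689%). Adamts1 was at 114 and 132 CPM in naïve UON and 74.5 and 96.9 at crush 3 D there, opposite to its values in MON.

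Crush and glaucoma were also compared directly at the times they share. By edgeR 0 of 39 members were called in UON at 3 D (0% of all genes, 0 members at an unadjusted p below 0.05, DESeq2 0) and at 2 W (0.0418%, 3 members). In MON 0 of 41 were called at 3 D (0.0162%, 4 members) and at 2 W (0.0485%, 9 members). Over all genes, 255 and 2451 of 23927 were below that p in UON and 2562 and 1857 of 24738 in MON. DESeq2 called 3 in UON at 2 W (1.28% of all genes), Mmp12 higher after crush (5.34 ± 0.97) and Mmp15 (-1.53 ± 0.37) and Mmp17 (-2.42 ± 0.58) lower, 1 in MON at 3 D (1.33%), Adamts2 lower (-1.10 ± 0.32), and 1 in MON at 2 W (0.852%), Mmp3, which rests on the female pool.

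The members called by edgeR in none of the tissue or injury comparisons were, but for Mmp3, low in all libraries. DESeq2 called Adamts7, Adamts14, Mmp10 and Mmp3 of these after injury, and Adamts12 in a difference of response between MON and UON. Apart from Mmp3, which reached 35.7 FPKM in 1 library, their highest values were 2.13 FPKM for Adamts18, 2.09 for Adamts17, 1.41 for Adamts19, 1.28 for Adamts7, 1.21 for Mmp27 and 1.15 for Mmp10. Adamts13, which cuts von Willebrand factor, did not exceed 0.232 FPKM, the leukocyte enzyme Mmp25 0.359, Mmp21 0.578, Adamts12 0.556, Adamts16 0.824, Adamts14 0.877 and Mmp13 0.506. Adamts18 was highest in naïve tissue in retina, at 1.61 and 1.33 FPKM against 0.285 and 0 in UON. The untested Mmp1a, Mmp1b, Mmp7 and Mmp20 held 13, 2, 14 and 20 counts over all 36 libraries.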

How the data were processed

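Bulk RNA-seq of UON, MON and retina gave 36 libraries, each from the RNA of 2 mice of one sex. Read pairs were mapped by the authors to GRCm38 (HISAT2 2.2.1), who then assembled them with StringTie 1.3.0 on Gencode annotation. The deposited estimated counts per gene were made by the authors from StringTie coverage and transcript length, not normalized, so 1 fragment adds several counts. The deposited FPKM are the authors' StringTie values, scaled to transcript length and mapped fragments. The deposited TPM, used only as an alternative, are likewise StringTie values of the authors. In 13 FPKM and 18 TPM columns a few deposited values lay just below 0, and these columns were handled as a score with such values set to 0. A table per transcript was not used. Columns of the count table were matched to samples by the file names of the per-sample tables, and each column correlated best with its own table (36 of 36; Spearman 0.977 or higher against 0.889 or lower for others).

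Counts were analysed in edgeR 4.0.16 (R 4.3.3): TMM, filterByExpr with a minimum count of 10 and total of 15, and the quasi-likelihood test on a model of group plus sex, with p-values adjusted by Benjamini-Hochberg across every tested gene. The 6 naïve libraries were fitted together. Each tissue and model was fitted with its naïve libraries, and tissue differences in response and the 2 models were compared in joint fits. Calls needed an adjusted p below 0.05 and a log2 change beyond 1. With 2 pools a group, a permutation test could not reach that threshold. DESeq2 1.42.0, other size factors, no filter, 1 fit over all libraries, no sex term and each library left out were the alternatives. The code was tested on simulated data. Promoter and sequence entries are from RefSeq (GRCm38.p6), with 31 members matched and 14 not. Members and lists were chosen with earlier results of these data known. Named with a fold change were called members, up to 6 in each direction. Those called by DESeq2 alone, the low members and the promoters shown were added after their values were seen. Some related genes are not reported here.

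The same mice gave all tissues, and the sex term marks the pool. The difference of female and male pools correlated between tissues of the same mice by -0.11 to 0.25 (18 pairs, 15200 genes, median 0.02).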

Additional observations from a re-analysis of the deposited data

How the results depend on the processing

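The counts of members at 1 FPKM or more stayed within 1.5 times with TPM (21, 20 and 17), with both pools required (18, 17 and 14) and without either pool. The calls between naïve tissues also stayed within that limit (DESeq2 18, 19 and 22; without 1 library 11 to 13, 16 to 19 and 16 to 20). No result changed direction. With DESeq2 in place of edgeR, MON after crush had 14 members called at 3 D, 11 at 2 W and 8 between the times, UON 2 at 2 W and 3 between the times, and retina 1 at 3 D and 2 at 2 W. In glaucoma DESeq2 called 1 in UON at 6 W, 2 and 1 in MON at 3 D and 2 W, and 1 in retina at 6 W. Differences of response between MON and UON by DESeq2 were 3 and 5 after crush and 1 each at glaucoma 2 W and 6 W, and crush over glaucoma gave 3 in UON at 2 W and 1 each in MON at 3 D and 2 W. With no filter on low counts, MON after crush had 14, 9 and 9 members called (3 D, 2 W, between the times), MON glaucoma 3 D had 1, retina crush 1 and 2, the differences of response after crush 3 and 5, and crush over glaucoma 1 in UON and 2 in MON at 2 W. In 1 fit over all 36 libraries, 2 W over 3 D had 2 calls in UON and 3 in MON, and crush over glaucoma at 2 W in UON had 2. The sex term pairs the tissues of a pool in the naïve fit only. Without it, MON crush had 6 calls at 3 D and 1 between the times, and retina crush 1 at 3 D, while no other count moved by over 1.5 times. Without 1 library, calls in MON at crush 3 D ranged from 0 (without either naïve pool) to 11 (without the female 3 D pool), and at 2 W from 0 (without either naïve pool) to 8 (without the male 2 W pool; 6 without the female). Between the times they were 4 to 6 without any 1 of the 4 crush pools. MON glaucoma 3 D ranged from 0 to 1 (without its male pool), retina crush 3 D was at 1 without any 1 of its 4 pools, and retina crush 2 W ranged from 0 to 1 (without the female naïve pool). The difference of response at crush 2 W ranged from 0 to 7 (without the female UON crush pool; 1 without the male MON crush pool), crush over glaucoma in UON at 2 W from 0 to 2 (without the female crush pool) and in MON at 3 D from 0 to 1 (without the female glaucoma pool). The cause was not tested. With 2 pools a group, and naïve MON pools of 78.1 M and 17.8 M counts, low genes such as Mmp8, Mmp9 and Mmp10 are measured least firmly.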
